A study of Homo sapiens with 6 samples.

Results

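The genes described are those of NF-kB signalling together with cytokine and chemokine genes, in RNA-seq libraries of the human osteosarcoma cell line U2OS. They were taken by symbol from a list of 50 symbols, which stand for 49 genes because IL8 is an older symbol of CXCL8. Of these genes, 42 had a row among the 15585 genes of the count table, and NFKBIB, CXCL1, CXCL5, CXCL12, CCL5, TNF and MIF were not analysed here. The cells had been transfected for 48 h with control siRNA (siCTR, 3 libraries) or with siRNA against the histone demethylase LSD1 (siLSD1, 3 libraries), and nothing else separates the groups in the labels. Which LSD1 siRNA was used is not given in the sources used here. The labels do not say whether the libraries of a group came from separate cultures, so that p-values measure only the spread between these libraries, which may be technical.

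NF-kB factors are dimers of Rel family proteins that are held in the cytoplasm by IkB proteins. Receptors of the TNF and interleukin-1 families act through TRAF adaptors on the IKK kinase, which marks IkB proteins for degradation, and the freed dimers then bind kB sites in the genes of cytokines, chemokines, adhesion molecules and their own inhibitors. Several of these targets, among them the genes of IkB alpha and of the deubiquitinase A20, act back on the pathway and end the response.

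Counted reads totalled 12855558, 13026699 and 13444230 for the siCTR libraries (replicates 1 to 3), against 13292468, 12513511 and 13561344 for the siLSD1 libraries (replicates 1 to 3). KDM1A, the gene of LSD1, had 6140, 6493 and 6573 reads with siCTR, against 1110, 1198 and 1246 with siLSD1, which left 18.5% of the control level (log2 fold change −2.44, standard error 0.11, adjusted p = 2.27e-07, edgeR with Benjamini-Hochberg adjustment). The knockdown therefore matched the labels in all 6 libraries. Libraries within a group did not lie equally close to each other. The chi-square per degree of freedom over genes was 7.02 between siCTR replicates 1 and 3, but 29.2 and 22.7 between siCTR replicate 2 and these, and 23.1 between siLSD1 replicates 1 and 3. Counts on GC-rich genes varied between libraries as well. Per 10 percentage points of GC content, the deviation of a library from the mean of all 6 changed by 0.10 on the log2 scale in siCTR replicate 1, by 0.13 in siLSD1 replicate 1 and by −0.19 in siLSD1 replicate 3, and by less than 0.04 in either direction in the other libraries.

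Markers of the labelled cell type and of other cell types were read in the same libraries. Of 8 mesenchymal and osteoblast-lineage genes, 7 had a row, and their summed level was 1128, 1233 and 1172 CPM (counts relative to library size, scaled with TMM) in siCTR and 1203, 1206 and 1254 CPM in siLSD1, with VIM as the most abundant. SPARC and RUNX2 had at most 4 reads in any library. Of 8 leukocyte genes, 7 had a row. Their summed level was 8.93, 11.4 and 9.0 CPM in siCTR and 12.5, 10.7 and 8.60 CPM in siLSD1, and the most abundant was CD68. The defining leukocyte genes PTPRC and LYZ had 1 read each over all 6 libraries. Epithelial genes summed to 9.70, 9.66 and 7.58 CPM in siCTR and 13.6, 12.5 and 13.3 CPM in siLSD1, with CDH1 as the most abundant. Endothelial genes summed to 8.09, 4.98 and 6.84 CPM in siCTR and 11.5, 12.9 and 11.7 CPM in siLSD1, mostly VWF, while PECAM1 had at most 3 reads in any library and TIE1 at most 1. CDH1 had a log2 fold change of 0.77 (adjusted p = 0.0699), VWF rose by 0.87 (adjusted p = 0.0418) and the mesenchymal gene FN1 by 0.95 (adjusted p = 0.0216), in edgeR with Benjamini-Hochberg adjustment. The only other epithelial gene tested, EPCAM, had a log2 fold change of −0.06. Both the epithelial sum, through CDH1, and the endothelial sum thus separated the groups, with siLSD1 higher, and their part in the results below was not tested. In bulk RNA a change in the share of cells that express a gene and a change of its level per cell cannot be told apart.

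Of the 42 genes with a row, 35 passed the filter on low counts and were tested among 11844 genes. After LSD1 knockdown the adhesion molecule gene ICAM1 fell to 60.8% of its control level, and it was the only member with an adjusted p under 0.05 (1 of 35, or 2.86%, against 1.44% of all genes tested). IL6, the feedback inhibitor gene TNFAIP3, the Rel subunit gene NFKB1 and the adaptor gene TRAF3 were higher at an unadjusted p under 0.05 only (4 of 35, or 11.4%, against 7.48% of all genes). ICAM1, the IkB gene NFKBIE and the cytokine gene IL32 were lower at that threshold (3 of 35, or 8.57%, against 6.55% of all genes). All 3 siLSD1 libraries lay above all 3 siCTR libraries in 5 members, which is 14.3% against 11.4% of all genes, and below them in 3 members, which is 8.57% against 9.97%. These shares are near those of all genes, and the members did not move in one direction. Fold changes were above 0 in 19 members and below 0 in 16, with a median log2 fold change of 0.06 for the 10 secreted ligands and 0.003 for the 25 pathway components, beside −0.01 for all genes tested.

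**Figure D1:**
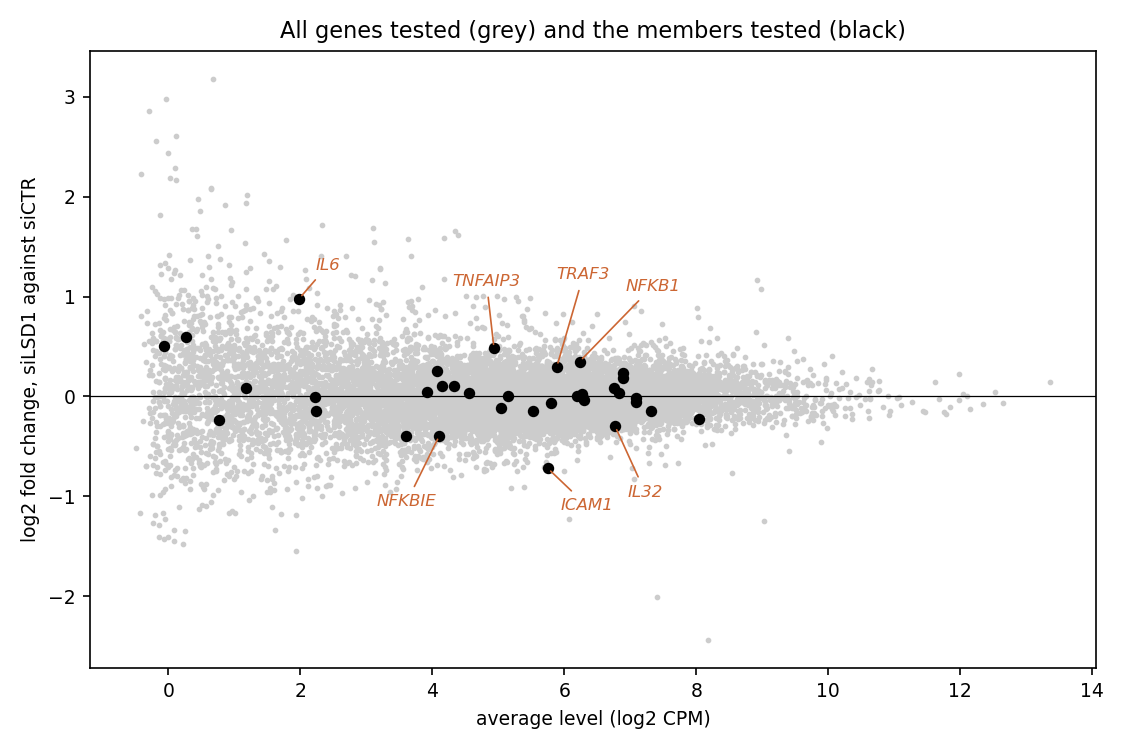
Each grey point is 1 of the 11844 genes tested, with its average level in log2 CPM on the horizontal axis and its log2 fold change, siLSD1 against siCTR, on the vertical axis; black points are the 35 members tested. Members with an unadjusted p under 0.05 are named, and most of the others lie within the grey cloud near 0.

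ICAM1 (chromosome 19, 10271093 to 10286615, + strand, GRCh38) encodes a surface protein to which leukocyte integrins bind, and is a widely used target gene of NF-kB. Reads numbered 938, 803 and 876 with siCTR (replicates 1, 2 and 3), against 622, 474 and 500 with siLSD1 (replicates 1, 2 and 3). Every siLSD1 library was below every siCTR library, and siLSD1 replicate 1 was the nearest to the controls. The level was 66.6 ± 5.03 CPM with siCTR (SD, n = 3) against 40.5 ± 5.10 CPM with siLSD1 (SD, n = 3). Its log2 fold change was −0.72 with a 95% confidence interval of −1.0 to −0.44 (adjusted p = 0.0157, edgeR with Benjamini-Hochberg adjustment). The call was lost without siCTR replicate 3 (adjusted p = 0.0579) and without siLSD1 replicate 2 (adjusted p = 0.12), both from edgeR with Benjamini-Hochberg adjustment, while leaving out each library gave log2 fold changes of −0.83 to −0.66. ICAM1 overlaps the antisense genes LIMASI and ICAM4-AS1 in the annotation, and whether the counting used strand is not given in the sources used here.

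IL6, a secreted ligand, had the largest fold change of the 35 tested members. IL6 (chromosome 7, 22725884 to 22732002, + strand, GRCh38) encodes interleukin-6, a cytokine that signals through a receptor shared with LIF and IL-11. Reads were few, at 23, 47 and 30 with siCTR, against 58, 66 and 74 with siLSD1. The groups did not overlap, although siCTR replicate 2 came close to siLSD1 replicate 1. In CPM the level was 2.55 ± 0.985 (SD, n = 3) in siCTR and 5.03 ± 0.624 (SD, n = 3) in siLSD1, a 1.97-fold difference with a log2 fold change of 0.98 and a 95% confidence interval of 0.38 to 1.58. The difference did not pass the adjusted threshold (unadjusted p = 0.00376, adjusted p = 0.119, edgeR with Benjamini-Hochberg adjustment). The gene overlaps STEAP1B on the opposite strand, which had at most 2 reads in any library, and the antisense gene IL6-AS1.

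IL32 encodes an intracellular and secreted cytokine that induces other inflammatory cytokines. IL32 (chromosome 16, 3065297 to 3082192, + strand, GRCh38) had 1398, 1778 and 1525 reads with siCTR, against 1383, 1134 and 1334 with siLSD1. After scaling, all siLSD1 libraries were below all siCTR libraries, but siCTR replicate 1 and siLSD1 replicate 1 differed by only 15 reads before it. The level was 119.8 ± 16.4 CPM with siCTR (SD, n = 3) against 97.6 ± 6.13 CPM with siLSD1 (SD, n = 3) (log2 fold change −0.30, 95% confidence interval −0.56 to −0.03, unadjusted p = 0.0322, adjusted p = 0.297, edgeR with Benjamini-Hochberg adjustment). IL18 encodes a cytokine of the interleukin-1 family that is cleaved by caspase-1. By mean FPKM over all 6 libraries it had the highest level of all members. TNFRSF12A was above it in siCTR replicate 1 and in siLSD1 replicate 1. IL18 had 1164, 1696 and 1383 reads with siCTR, against 1432, 1677 and 1909 with siLSD1. The groups overlapped, at 108 ± 21.7 CPM with siCTR (SD, n = 3) against 128 ± 18.4 CPM with siLSD1 (SD, n = 3), with a log2 fold change of 0.24 and a 95% confidence interval of −0.09 to 0.57 (adjusted p = 0.511, edgeR with Benjamini-Hochberg adjustment).

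The other 7 tested ligands had unadjusted p-values of 0.0609 or more, and in each of them the groups overlapped. LIF had 241 to 361 reads, the macrophage growth factor gene CSF1 had 112 to 215 and the monocyte chemokine gene CCL2 had 53 to 70. Their log2 fold changes were 0.03 for LIF, −0.40 for CSF1 and −0.15 for CCL2. IL15 had 50 to 67 reads and IL11 had 15 to 44, with log2 fold changes of −0.003 and 0.08. The neutrophil chemokine genes CXCL8 and CXCL2 had 6 to 15 and 8 to 22 reads, with log2 fold changes of 0.50 and 0.59. At this depth their 95% confidence intervals reached from −0.42 to 1.42 and from −0.31 to 1.5, which include both 0 and the value of IL6. A further 6 ligands were below the filter. Reads ranged from 2 to 7 for IL1A, from 1 to 6 for IL1B, from 0 to 4 for CXCL3, and CCL20 and CSF2 had at most 1 read in any library. TSLP, the gene of an epithelial cytokine, had no read with siCTR, against 1, 2 and 3 reads with siLSD1. Against a floor of 3 counts over the siCTR group, the observed siLSD1 reads are 2.0-fold higher. This floor covers counting error in siCTR only. The few siLSD1 reads are taken as exact, so that the value is not a lower bound of the difference. An antisense gene also overlaps TSLP.

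**Figure D2:**
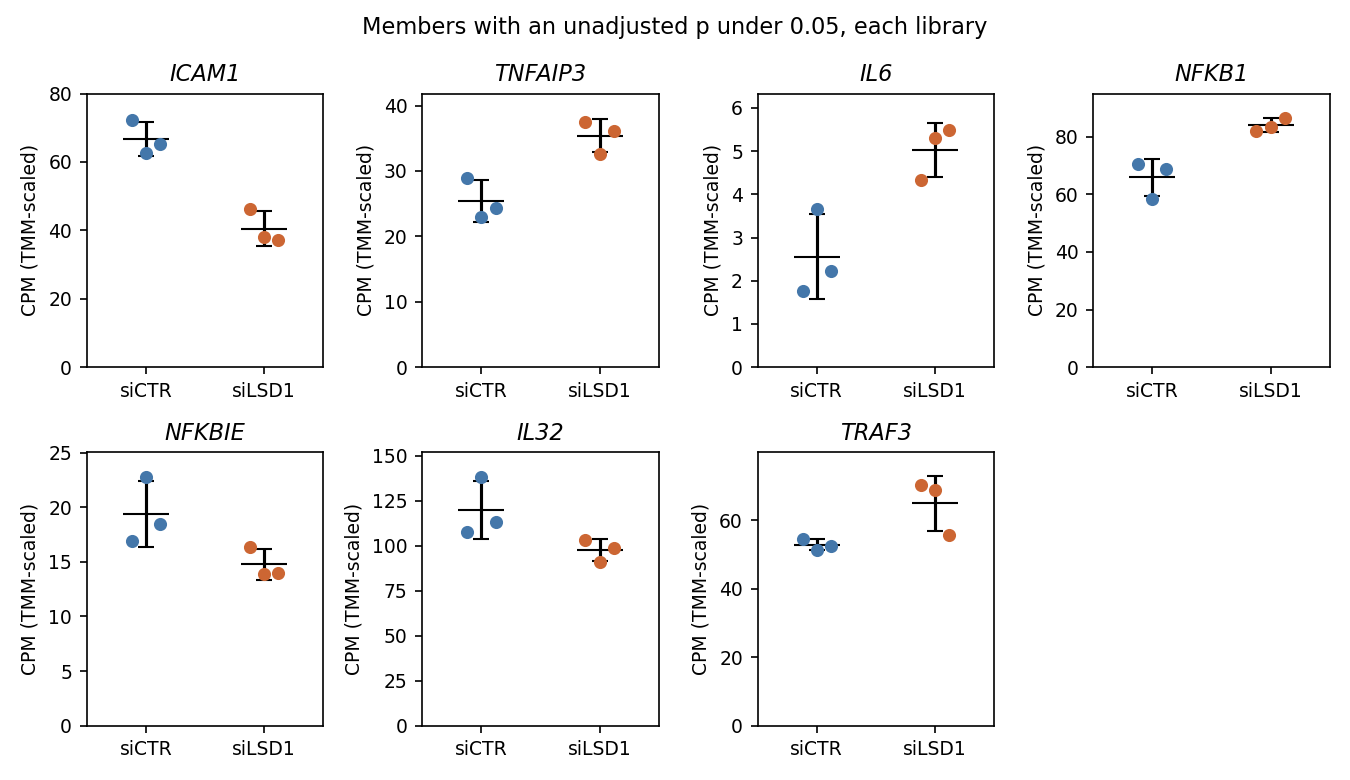
Each panel shows 1 of the 7 members with an unadjusted p under 0.05, with TMM-scaled CPM on a vertical axis from 0, in blue for siCTR and orange for siLSD1, where the horizontal line is the mean and the bar the SD of 3 libraries. ICAM1, NFKBIE and IL32 are lower and TNFAIP3, IL6, NFKB1 and TRAF3 higher in each siLSD1 library, with the smallest gaps in IL32, NFKBIE and TRAF3.

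Of the 5 Rel subunit genes, all were tested and only NFKB1 passed the unadjusted threshold. NFKB1 (chromosome 4, 102501330 to 102617302, + strand, GRCh38) encodes p105, which is processed to the p50 subunit. It had 915, 751 and 924 reads with siCTR, against 1099, 1040 and 1167 with siLSD1. The siLSD1 libraries were above all siCTR libraries, among which siCTR replicate 2 was the lowest. NFKB1 was at 65.9 ± 6.48 CPM with siCTR (SD, n = 3) against 84.0 ± 2.35 CPM with siLSD1 (SD, n = 3), a 1.27-fold difference (log2 fold change 0.35, 95% confidence interval 0.10 to 0.60, unadjusted p = 0.00993, adjusted p = 0.185, edgeR with Benjamini-Hochberg adjustment). NFKB2, the gene of p100 and p52, had 2132, 2163 and 2254 reads with siCTR, against 2249, 1919 and 1773 with siLSD1, and RELA, the gene of the transactivating p65 subunit, had 1563, 1319 and 1499 with siCTR, against 1715, 1423 and 1357 with siLSD1. In both genes the groups overlapped and siLSD1 replicate 3 was the lowest siLSD1 library. The log2 fold change was −0.14 for NFKB2 (95% confidence interval −0.39 to 0.11) and 0.03 for RELA (−0.23 to 0.30). RELB and REL had log2 fold changes of 0.04 and 0.003. The levels per length, in FPKM as the mean of all 6 libraries, were ordered NFKB2 (43.1), RELA (33.3), NFKB1 (13.6), RELB (6.51) and REL (3.13).

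The IkB proteins hold Rel dimers in the cytoplasm or, as IkB zeta does, act in the nucleus. NFKBIE (chromosome 6, 44258166 to 44265788, − strand, GRCh38), the gene of IkB epsilon, had 220, 292 and 248 reads with siCTR, against 220, 173 and 189 with siLSD1. Before scaling, siCTR replicate 1 and siLSD1 replicate 1 had the same number of reads, and after it the groups were apart. The level was 19.4 ± 3.01 CPM with siCTR (SD, n = 3) against 14.8 ± 1.41 CPM with siLSD1 (SD, n = 3) (log2 fold change −0.39, 95% confidence interval −0.73 to −0.06, unadjusted p = 0.0258, adjusted p = 0.270, edgeR with Benjamini-Hochberg adjustment). NFKBIA, the gene of IkB alpha and the most abundant of the group in FPKM, had 469, 459 and 400 reads with siCTR, against 453, 388 and 390 with siLSD1. Its groups overlapped, and its log2 fold change was −0.11 with a 95% confidence interval of −0.40 to 0.17. NFKBIZ, the gene of IkB zeta, had 192 to 201 reads in siCTR and 207 to 284 in siLSD1. After scaling its groups overlapped, and its log2 fold change was 0.26 with a 95% confidence interval of −0.07 to 0.59. NFKBIZ overlaps NXPE3 on the same strand, so that some of its reads could belong to either gene.

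None of the 3 IKK subunit genes passed the unadjusted threshold. CHUK, the gene of IKK alpha, had 949, 1103 and 1029 reads with siCTR, against 990, 968 and 1092 with siLSD1. IKBKB, the gene of IKK beta, had 1019, 802 and 1030 reads with siCTR, against 1024, 899 and 942 with siLSD1. In both genes the groups overlapped, and their log2 fold changes, −0.02 with a 95% confidence interval of −0.26 to 0.23 and 0.005 with one of −0.26 to 0.27, bound a difference in either direction below 0.3 on the log2 scale. The sign of both values changed with the correction for GC content and length described below. IKBKG, the gene of the regulatory subunit NEMO, had a log2 fold change of 0.11, which is uncertain because the genome holds a near-identical copy of part of the gene.

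The adaptor and feedback genes all passed the filter (10 of 10). TNFAIP3 (chromosome 6, 137867214 to 137883314, + strand, GRCh38) encodes A20, a ubiquitin-editing enzyme that ends NF-kB signalling and is itself induced by NF-kB. It had 376, 294 and 327 reads with siCTR, against 503, 406 and 488 with siLSD1. Each siLSD1 library was above each siCTR library. TNFAIP3 was at 25.4 ± 3.17 CPM with siCTR (SD, n = 3) against 35.4 ± 2.54 CPM with siLSD1 (SD, n = 3), a 1.40-fold difference (log2 fold change 0.48, 95% confidence interval 0.19 to 0.77, unadjusted p = 0.00333, adjusted p = 0.114, edgeR with Benjamini-Hochberg adjustment). TNIP1, whose protein binds A20, had 1455, 1406 and 1469 reads with siCTR, against 1747, 1551 and 1648 with siLSD1. These groups were also apart, by a smaller margin, with a log2 fold change of 0.19 and a 95% confidence interval of −0.03 to 0.41 (unadjusted p = 0.0894, adjusted p = 0.437, edgeR with Benjamini-Hochberg adjustment).

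TRAF3 (chromosome 14, 102777449 to 102911500, + strand, GRCh38) encodes an adaptor that restrains the alternative NF-kB pathway by promoting the loss of the kinase NIK. It had 710, 661 and 707 reads with siCTR, against 942, 859 and 752 with siLSD1. The groups did not overlap, but siLSD1 replicate 3 lay near the controls. TRAF3 was at 52.9 ± 1.63 CPM with siCTR (SD, n = 3) against 65.0 ± 8.0 CPM with siLSD1 (SD, n = 3) (log2 fold change 0.30, 95% confidence interval 0.03 to 0.56, unadjusted p = 0.0326, adjusted p = 0.299, edgeR with Benjamini-Hochberg adjustment). TRAF2, the adaptor gene with the highest level in FPKM, had 1884, 1835 and 1697 reads with siCTR, against 2061, 1726 and 1423 with siLSD1. TNFAIP2, a TNF-induced gene, had 4080, 3416 and 3569 reads with siCTR, against 3784, 3101 and 2622 with siLSD1. In both genes the groups overlapped, siLSD1 replicate 3 was the lowest of all libraries, and the log2 fold changes were −0.06 and −0.22. The remaining 5 genes of this group had log2 fold changes of −0.14 for TNIP2, 0.03 for BIRC2, −0.06 for BIRC3, −0.24 for TRAF1 and 0.10 for TRAF6, and TRAF1 was near silent at 0.241 FPKM.

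Among receptors and surface proteins, ICAM1 stood beside 3 tested receptor genes whose groups overlapped. TNFRSF12A, the gene of the TWEAK receptor and the most abundant of these in FPKM, had 1403, 1328 and 1361 reads with siCTR, against 1793, 1427 and 1124 with siLSD1. The siLSD1 libraries thus lay on both sides of the controls, and the log2 fold change was 0.08. TNFRSF12A overlaps CLDN6 on the opposite strand, which had at most 4 reads in any library. TNFRSF1A, the gene of the main TNF receptor, had 1052, 1048 and 1035 reads with siCTR, against 1064, 949 and 1052 with siLSD1, with a log2 fold change of −0.04 and a 95% confidence interval of −0.27 to 0.19. IL6ST, the gene of the signal-transducing gp130 receptor for interleukin-6, had 1530 to 2109 reads over all libraries and a log2 fold change of −0.01. IL1R1, the interleukin-1 receptor gene, had at most 5 reads in any library and was not tested. Antisense genes that were not analysed here also lie at IL18, IL32, LIF, TSLP, RELA, CHUK, BIRC3, TNFAIP2, TNFAIP3, TNIP1, IL6ST and IL1R1, whose counts may therefore include reads of the opposite strand.

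**Figure D3:**
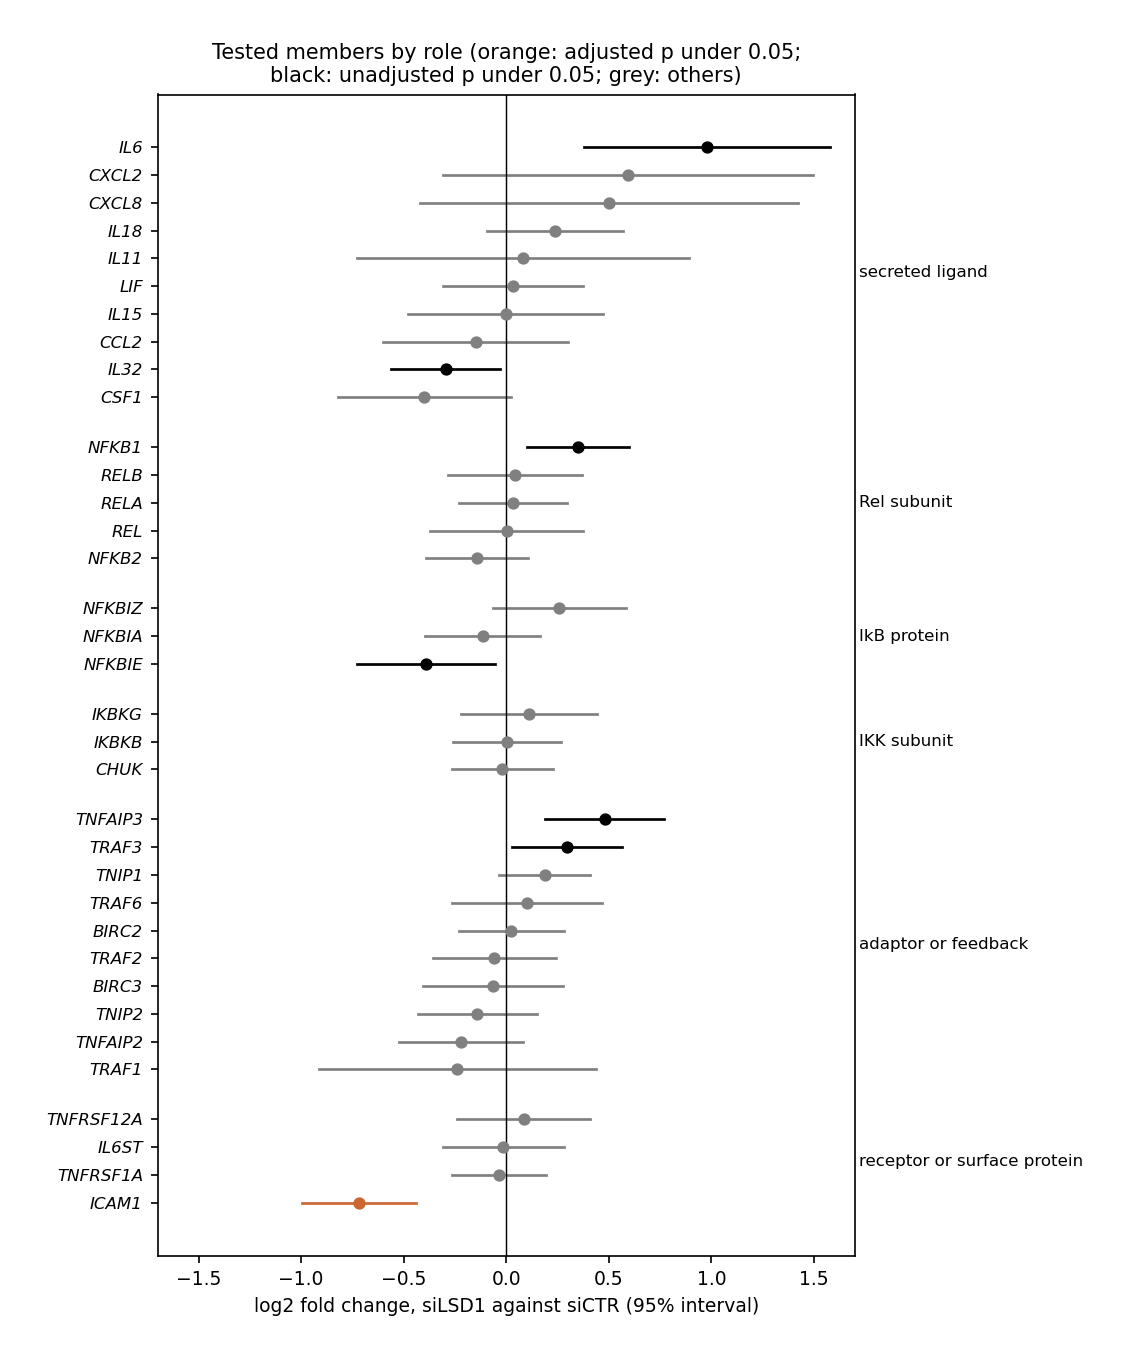
Points are log2 fold changes, siLSD1 against siCTR, of the 35 tested members grouped by role, and lines are their 95% confidence intervals, in orange for ICAM1 (adjusted p under 0.05), in black for the other 6 members with an unadjusted p under 0.05 and in grey for the rest. The widest intervals belong to CXCL2 and CXCL8, which had few reads.

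For the 28 tested members past neither threshold, log2 fold changes lay between −0.40 for CSF1 and 0.59 for CXCL2. Their 95% confidence interval reached a median of 0.33 to either side, and lay within −0.5 and 0.5 for 19 of them. Levels per length differed far more between genes than between groups. In FPKM, as the mean of all 6 libraries, IL18 was at 101, TNFRSF12A at 77.1, IL32 at 64.5, TRAF2 at 59.7 and TNFAIP2 at 55.9. LIF at 5.86, CCL2 at 4.05, CSF1 at 2.45 and IL6 at 2.21 followed among the ligands, and IL11, CXCL2, IL15 and CXCL8 were below 1. The order of IL18 and IL32 held in each group, at 92.4 ± 17.4 and 71.0 ± 8.82 FPKM (SD, n = 3) in siCTR and at 109 ± 14.9 and 58.0 ± 4.0 FPKM (SD, n = 3) in siLSD1, but in siCTR the ranges of both genes overlapped.

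**Figure D4:**
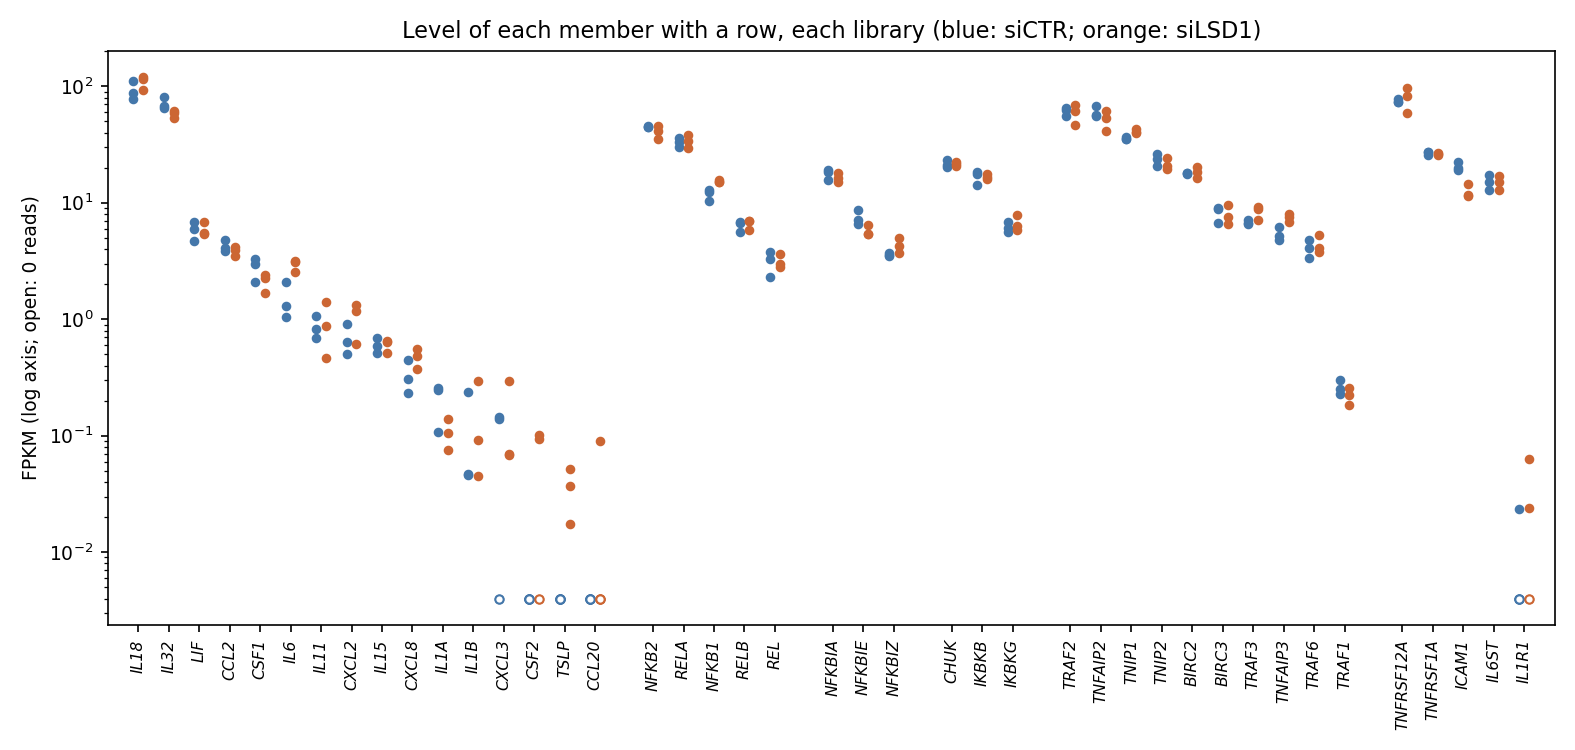
The FPKM of each of the 42 members with a row is shown for every library on a log axis, in blue for siCTR and in orange for siLSD1, grouped by role and ordered by level, with open points for libraries with 0 reads. IL18 and IL32 stand above the other ligands, whereas most pathway components lie between 3 and 80 FPKM.

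Correcting counts for GC and length, an alternative chosen after seeing the data, moved the count of members with an adjusted p under 0.05 from 1 to 5 of 35, beside 876 of 11761 genes (7.45%). These were ICAM1, IL6 (log2 fold change 1.04, adjusted p = 0.0235), TNFAIP3 (0.42, adjusted p = 0.0264), NFKB1 (0.34, adjusted p = 0.0475) and IL18 (0.36, adjusted p = 0.0170), all from edgeR with Benjamini-Hochberg adjustment. At the unadjusted threshold only, TNFRSF12A, TNIP1 and TRAF3 were higher under it and CSF1 and TNFAIP2 lower, whereas IL32 and NFKBIE no longer had an unadjusted p under 0.05, with log2 fold changes of −0.18 and −0.29. IL6, TNFAIP3, NFKB1 and ICAM1 had an unadjusted p under 0.05 in edgeR's test with each of the 6 libraries left out, whereas TRAF3 had one only without siLSD1 replicate 3 and lost it without each of the others. IL32 and NFKBIE lost it without siCTR replicate 2 and without siLSD1 replicate 2, and NFKBIE also without siLSD1 replicate 3.

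Other genes of the pathway were read from 3 lists of 100 genes in all, of which 84 had a row and 66 were tested. Of these, 2 passed the adjusted threshold, both higher (3.03%, against 1.44% of all genes tested), and at the unadjusted threshold 9 were higher (13.6%, against 7.48%) and 5 were lower (7.58%, against 6.55%). The median log2 fold change was −0.01. SDC4, the gene of a heparan sulphate proteoglycan at the cell surface, rose from 645, 700 and 684 reads in siCTR to 1120, 1061 and 1222 in siLSD1 (log2 fold change 0.74, 95% confidence interval 0.50 to 0.98, adjusted p = 0.0067, edgeR with Benjamini-Hochberg adjustment). IL7R, the receptor chain for interleukin-7 that also serves TSLP, rose from 132, 93 and 132 reads to 244, 223 and 299 (log2 fold change 1.10, 95% confidence interval 0.73 to 1.47, adjusted p = 0.00782, edgeR with Benjamini-Hochberg adjustment). In both genes every siLSD1 library was above every siCTR library.

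By list, 35 genes of upstream signalling were tested, of which 0 were higher and 3 were lower at the unadjusted threshold of edgeR's test, with a median log2 fold change of −0.07. Of 17 tested cytokine and chemokine receptors, 5 were higher and 1 was lower, with a median of 0.15, and of 14 other NF-kB target genes, 4 were higher and 1 was lower, with a median of 0.12. Over all genes tested, 7.48% were higher and 6.55% lower at that threshold, and the higher shares were 29.4% for the receptors and 28.6% for the targets. The next genes by p were the NF-kB repressing factor gene NKRF (log2 fold change −0.36), the stress response gene GADD45B (−0.52), the cyclooxygenase-2 gene PTGS2 (0.65) and the anti-apoptotic gene BCL2L1 (0.35). Their adjusted p-values were 0.188, 0.211, 0.226 and 0.238 in edgeR with Benjamini-Hochberg adjustment. PTGS2 had 40, 43 and 34 reads with siCTR, against 53, 68 and 63 with siLSD1, and GADD45B had 131, 146 and 119 with siCTR, against 107, 74 and 97 with siLSD1. Genes that are known to respond to NF-kB thus lay on both sides of 0 within the same libraries.

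Promoter sequences are shown for the 4 members with the lowest p-values, because they include the 1 member that was lower at the adjusted threshold and 3 that were higher at the unadjusted threshold only. They are the 250 bases before and the 50 bases after the first listed start in RefSeq on GRCh38.p14, 5′ to 3′ on the strand of the gene, which is + for all 4. Capitals mark matches to the NF-kB consensus or to the shorter motif GGANNTTCC, searched on both strands. The windows are chr19:10270870-10271169 for ICAM1, chr7:22726950-22727249 for IL6, chr6:137867009-137867308 for TNFAIP3 and chr4:102501109-102501408 for NFKB1.
ICAM1: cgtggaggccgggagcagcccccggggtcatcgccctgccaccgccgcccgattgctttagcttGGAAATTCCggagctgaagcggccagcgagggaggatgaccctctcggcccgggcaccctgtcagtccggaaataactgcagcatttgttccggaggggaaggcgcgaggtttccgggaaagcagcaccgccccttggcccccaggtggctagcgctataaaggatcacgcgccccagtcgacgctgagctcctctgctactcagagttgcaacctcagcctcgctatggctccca
IL6: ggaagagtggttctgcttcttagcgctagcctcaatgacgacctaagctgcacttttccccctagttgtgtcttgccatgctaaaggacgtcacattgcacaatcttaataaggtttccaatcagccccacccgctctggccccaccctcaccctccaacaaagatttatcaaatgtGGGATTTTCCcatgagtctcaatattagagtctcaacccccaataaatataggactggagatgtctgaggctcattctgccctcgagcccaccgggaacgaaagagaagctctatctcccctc
TNFAIP3: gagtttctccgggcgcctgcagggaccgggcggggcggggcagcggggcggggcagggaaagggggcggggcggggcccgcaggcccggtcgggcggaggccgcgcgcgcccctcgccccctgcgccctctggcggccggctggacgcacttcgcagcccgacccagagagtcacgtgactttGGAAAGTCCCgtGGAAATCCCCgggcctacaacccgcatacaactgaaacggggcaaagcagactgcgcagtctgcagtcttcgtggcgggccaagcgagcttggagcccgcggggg
NFKB1: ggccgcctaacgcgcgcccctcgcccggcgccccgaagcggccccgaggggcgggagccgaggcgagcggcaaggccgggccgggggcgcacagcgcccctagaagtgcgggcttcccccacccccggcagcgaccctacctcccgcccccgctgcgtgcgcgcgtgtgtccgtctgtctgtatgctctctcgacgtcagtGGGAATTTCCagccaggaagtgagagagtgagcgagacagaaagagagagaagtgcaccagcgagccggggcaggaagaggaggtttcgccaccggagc

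The ICAM1 window holds GGAAATTCC, which begins 186 bases before the start, and no match to the full consensus. In IL6 the match GGGATTTTCC begins 73 bases before the start, and in NFKB1 the match GGGAATTTCC begins 49 bases before it. TNFAIP3 holds a pair of matches close together, which begin 67 and 55 bases before the start and read GGGACTTTCC and GGGGATTTCC on the opposite strand. TRAF3 (GGGGATTTCC, 33 bases before the start) and IL32 (GGGAGTTTCC, 99 bases before the start) also hold a match to the consensus. Of the 42 members with a row, 33 had a promoter among the sequences used, with 52 starts in all. The consensus was found in 17 of these 52 promoters (32.7%), against 2075 of all 35116 promoters (5.91%), and the shorter motif in 16 (30.8%), against 1603 (4.56%). Both motifs, which overlap in their letters, were found in 12 of the 52 and in 421 of all promoters (1.20%). A match describes letters in the window and not a bound site. Matches were found both in members that were higher and in members that were lower after LSD1 knockdown, as well as in NFKBIA, NFKB2 and REL, whose groups overlapped.

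**Figure D5:**
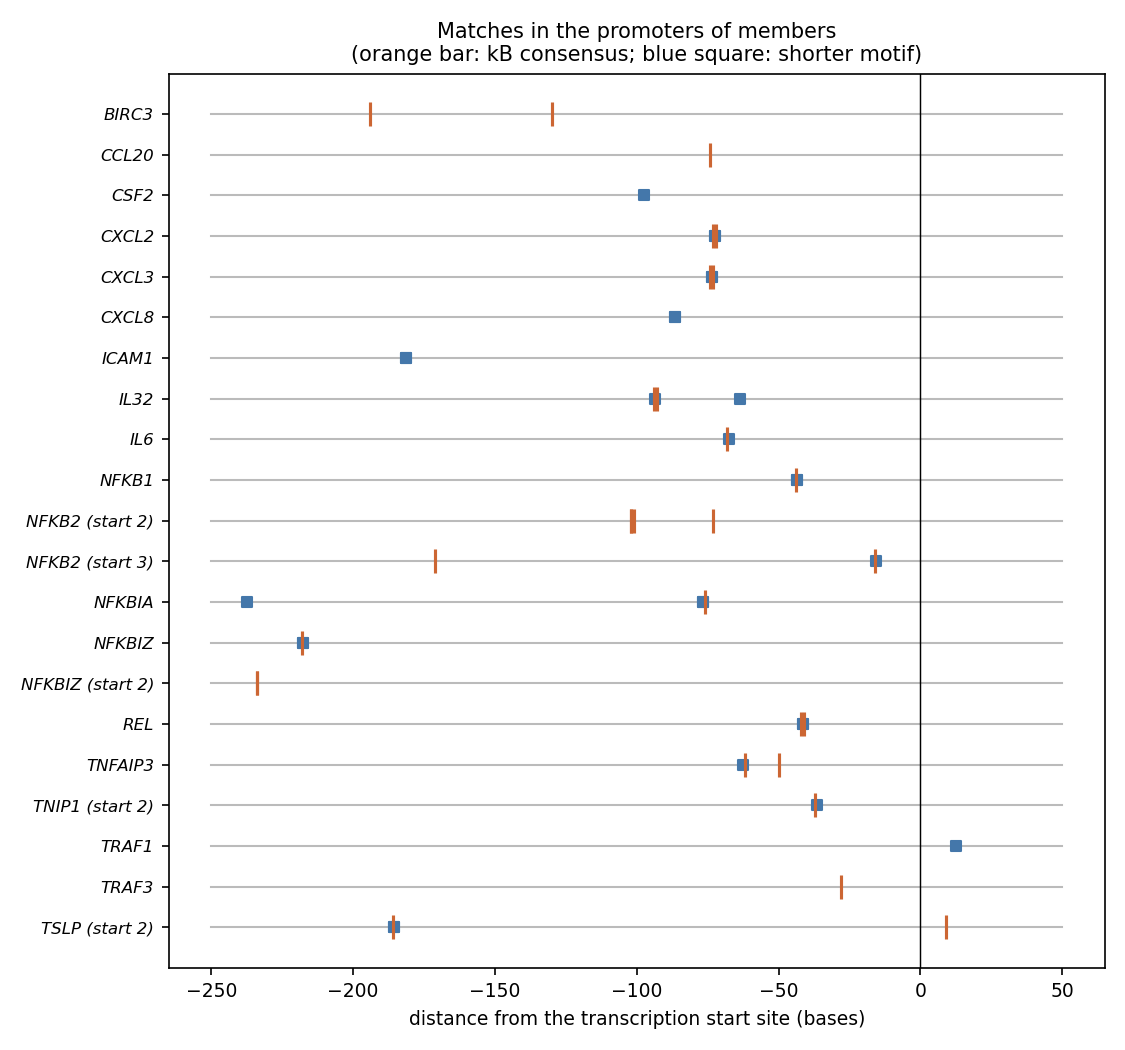
Grey lines are the promoter windows of members with a match, and the horizontal axis gives the distance from the transcription start site in bases, with orange bars for matches to the NF-kB consensus and blue squares for those to the shorter motif. Most matches lie within 110 bases before the start, whereas that of ICAM1 and some or all of those of BIRC3, NFKB2, NFKBIA, NFKBIZ and TSLP lie farther away.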

How the data were processed

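RNA-seq libraries of U2OS cells, 3 with siCTR and 3 with siLSD1, were grouped and numbered from their labels. Alignment by the authors was with STAR. The deposited counts are whole reads for each gene, not normalized, and the deposited FPKM values relate these to gene length and library size. The version, genome build, annotation and counter are not given in the sources used here. Tables of the 3 library pairs hold a second set of counts, made by a counting step that is not stated. The authors' comparison columns hold log2 fold changes, p-values and adjusted p-values and were not used, nor were 30 further columns of values per sample (normalized values, FPKM of the pairs and a filtered copy).

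Counts were tested in R 4.3.3 with edgeR 4.0.16 (TMM, filterByExpr, minimum count 10, no covariates, quasi-likelihood test) over all genes of the table. The filter left 11844 of 15585 genes, over which p-values were adjusted (Benjamini-Hochberg). The biological coefficient of variation was 12.6%. Libraries of a group differed beyond sampling noise and were used as separate samples. The test was checked on simulated data. Standard errors come from the fold change and its F statistic, and intervals are at 95%. Alternatives were DESeq2 1.42.0, limma-voom (limma 3.58.1), total-count scaling, no filter, a stricter filter (1 CPM in 3 libraries), the replicate number as a block, the second counting and each library left out. The GC and length correction (lowess, span 0.3) was chosen after seeing the data.

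The members and lists were chosen with earlier results of these data known. Members were named with all libraries where the unadjusted p was under 0.05 or where the groups did not overlap in CPM. This was also done where the mean FPKM was among the 2 highest of a role. Outside the members, up to 6 genes were named by p, of which NKRF and BCL2L1 without the reads of each library. The lists comprised upstream signalling, receptors, other NF-kB targets and mesenchymal, leukocyte, epithelial and endothelial markers. Coordinates are from GENCODE release 44 (GRCh38), to which 15352 genes were matched by symbol, 389 of them through a RefSeq synonym. Python 3.11.15 with pandas 2.3.3, numpy 2.4.6 and matplotlib 3.10.9 was used for the other steps.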

Additional observations from a re-analysis of the deposited data

How the results depend on the processing

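ICAM1 was the only member with an adjusted p under 0.05 with edgeR, DESeq2, limma-voom, total-count scaling, no filter, the stricter filter and the second counting. The number was 5 under the GC and length correction, 4 with the replicate number as a block, and between 0 and 1 with each library left out. The members higher at the unadjusted threshold numbered 7 with that correction, 5 with the block and between 3 and 5 with each library left out, and those lower numbered 3 with that correction, 5 with the block and between 2 and 4 with each library left out. Of all genes tested, 24.4% had an unadjusted p under 0.05 with that correction and 21.5% with the block, against 14% without them, in edgeR's test. The replicate numbers were not taken to pair the libraries, since the deviations from the group means correlated at 0.328, 0.0745 and 0.310 for numbers 1, 2 and 3. Every library nevertheless correlated best with its own number, and the deposited tables of library pairs join same-numbered libraries. The labels do not say whether a number stands for a shared culture or batch, so that a pairing is possible but not stated. Over all genes, 323 passed the adjusted threshold with DESeq2 and 290 without a filter, against 171 of 11844 with edgeR, and between 58 and 136 with each library left out. With the block, 897 of 11844 genes had an adjusted p under 0.05 in edgeR's test, and the members were ICAM1, IL6, NFKB1 and TNFAIP3. The median log2 fold change ranged from 0.0148 to 0.1974 for secreted ligands and from −0.0502 to 0.0321 for pathway components with each library left out, and the cause was not tested. KDM1A stayed between −2.47 and −2.38.

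Of 20 named genes, 280 values under alternatives kept their direction and their side of the adjusted threshold in 260 cases. Without 1 library the log2 fold change ranged from −0.0695 to 0.0529 for CHUK, from −0.0896 to 0.0638 for IKBKB, from −0.0547 to 0.1188 for RELA, from −0.0760 to 0.2528 for TNFRSF12A and from −0.1789 to 0.0827 for TRAF2, so that their direction was not settled. With the GC and length correction it was 0.0007 for CHUK, −0.0419 for IKBKB and 0.0489 for TRAF2, and the cause was not tested. Over the alternatives with all libraries the adjusted p ranged from 7.37e-06 to 0.0209 for ICAM1, from 0.00556 to 0.125 for IL6, from 0.0442 to 0.201 for NFKB1, from 0.0078 to 0.131 for TNFAIP3 and from 0.0170 to 0.575 for IL18, all adjusted by Benjamini-Hochberg in edgeR, limma or DESeq2. Depth limits what can be said of the 7 members below the filter and of CXCL2, CXCL8, IL11 and TRAF1.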
